A study of Mus musculus with 8 samples.

Results

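The V segment genes and constant genes of the immunoglobulin loci were followed in 8 mouse spleen tumours, to see which segments and isotypes each tumour used. Members were all genes annotated in GENCODE M21 as immunoglobulin V or C genes with symbols beginning Igh, Igk or Igl. They were 213 of the 41214 gene identifiers in the deposited count tables. There were 104 heavy chain V segments (Ighv) and 7 heavy constant genes on chromosome 12. Another 97 kappa V segments (Igkv) and 1 kappa constant gene (Igkc) lie on chromosome 6, and 3 lambda V segments (Iglv) and 1 lambda constant gene (Iglc2) on chromosome 16. At least 1 count was found in some library for 206 of the 213. Ighd, Iglc1, Iglc3, Iglc4 and 12 further V segments of the annotation were not analysed here.

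Messenger RNA was sequenced from tumours of C57Bl6 mice, with 2 tumours in each of 4 groups and a separate mouse for each. B deltaPOZ and B wt are B cell tumours, and T deltaPOZ and T wt are CD4+ T cell tumours. Miz1, encoded by Zbtb17, is a zinc finger transcription factor whose POZ domain joins its molecules to each other; deltaPOZ tumours carry Miz1 without that domain, and wt tumours carry it whole. The promoter or Cre behind the deletion, the sex and age of the mice and what started the tumours were each not given in the sources used here. All 4 T libraries have the tag Notch in their deposited names and both T deltaPOZ libraries also have ENU, and B and T libraries bear different run tags, so lineage and run cannot be told apart. The T tumours serve as the background, since their malignant cells are not of the B lineage.

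Each B cell precursor joins a V segment to D and J segments at the heavy chain locus, and later a V to a J segment at a kappa or lambda locus, so that a clone of B cells carries the same V segments in every cell. A V segment lying in its germline place is silent or weakly transcribed, and the joined one is transcribed with the constant gene. Ighm encodes the mu constant region of IgM, the first isotype made, and the gamma, alpha and epsilon genes take its place after class switching in antigen-experienced B cells and plasma cells. A precursor that has joined its heavy chain but not yet its light chain pairs mu with the surrogate light chain.

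The segments on which the comparisons below turn are shown as the last annotated coding bases of their germline V exon, 5′ to 3′ on the coding strand, from the GENCODE M21 transcripts (GRCm38). Capitals mark the codon of the conserved cysteine that closes the framework before the third complementarity-determining region, and the germline coding bases after it, where joining to D or J takes place. Iglv1 (chr16:19085017-19085316, minus strand) was abundant in B deltaPOZ 1, and Ighv8-6 (chr12:115165781-115166080, minus strand) led the heavy chain segments of B deltaPOZ 2. Ighv7-3 (chr12:114153180-114153479, minus strand) and Ighv5-9-1 (chr12:113736111-113736410, minus strand) made up most heavy chain V counts of B wt 1. Igkv14-111 (chr6:68256572-68256869, plus strand) led the kappa segments of B deltaPOZ 1, and Igkv1-88 (chr6:68862265-68862564, minus strand) led those of B deltaPOZ 2 and B wt 2. All lie within the single V exon of their gene.
Ighv7-3: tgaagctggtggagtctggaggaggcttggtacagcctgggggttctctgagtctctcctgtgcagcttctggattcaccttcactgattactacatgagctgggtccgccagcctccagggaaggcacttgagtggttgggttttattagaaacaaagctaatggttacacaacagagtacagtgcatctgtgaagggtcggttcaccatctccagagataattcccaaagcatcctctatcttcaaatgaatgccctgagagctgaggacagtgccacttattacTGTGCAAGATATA
Ighv5-9-1: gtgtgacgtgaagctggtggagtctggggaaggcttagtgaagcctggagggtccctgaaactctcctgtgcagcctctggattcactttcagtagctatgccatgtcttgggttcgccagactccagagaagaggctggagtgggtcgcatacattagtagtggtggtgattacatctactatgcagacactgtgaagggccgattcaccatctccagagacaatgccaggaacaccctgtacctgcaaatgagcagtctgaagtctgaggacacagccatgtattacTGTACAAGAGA
Ighv8-6: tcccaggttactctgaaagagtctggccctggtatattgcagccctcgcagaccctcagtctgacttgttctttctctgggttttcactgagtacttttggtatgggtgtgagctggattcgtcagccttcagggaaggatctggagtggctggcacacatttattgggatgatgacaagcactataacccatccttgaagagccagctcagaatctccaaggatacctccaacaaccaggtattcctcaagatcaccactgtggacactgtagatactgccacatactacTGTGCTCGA
Iglv1: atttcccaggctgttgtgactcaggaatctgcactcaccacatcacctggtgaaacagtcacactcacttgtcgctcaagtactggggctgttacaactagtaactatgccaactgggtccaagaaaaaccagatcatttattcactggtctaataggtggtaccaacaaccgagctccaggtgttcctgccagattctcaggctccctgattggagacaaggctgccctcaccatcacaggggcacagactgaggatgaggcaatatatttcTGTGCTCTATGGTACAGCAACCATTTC
Igkv14-111: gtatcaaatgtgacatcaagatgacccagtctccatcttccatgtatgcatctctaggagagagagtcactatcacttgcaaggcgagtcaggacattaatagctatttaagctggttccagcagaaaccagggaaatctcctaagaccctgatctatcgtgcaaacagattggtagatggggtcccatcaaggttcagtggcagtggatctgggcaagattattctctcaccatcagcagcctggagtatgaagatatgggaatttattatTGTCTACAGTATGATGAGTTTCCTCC
Igkv1-88: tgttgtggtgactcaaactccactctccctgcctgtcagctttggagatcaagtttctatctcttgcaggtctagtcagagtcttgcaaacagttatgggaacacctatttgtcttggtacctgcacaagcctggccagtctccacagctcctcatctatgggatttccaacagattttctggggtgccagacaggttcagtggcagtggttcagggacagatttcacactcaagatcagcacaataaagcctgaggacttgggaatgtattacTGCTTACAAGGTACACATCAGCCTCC

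No stop codon stood in the frame of these 6 stretches. Ighv7-3 shared 94.6% of its V exon bases with its closest relative, Ighv7-2, Ighv5-9-1 shared 94.5% with Ighv5-6, and Ighv8-6 shared 95.2% with Ighv8-9. The kappa leaders were more distant from other segments, at 85.3% for Igkv1-88 and 90.9% for Igkv14-111, and Iglv1 was 97.0% identical to Iglv2. Over all 104 Ighv segments the median identity to the closest other segment was 95.1%, and 12 were at 98% or above; for the 97 Igkv segments it was 94.9%, with 6 at 98% or above. Counts of such close copies are uncertain, because the deposited tables tally reads with more than 1 alignment apart from the genes. The 12 near-identical Ighv segments had a median of 44.5 counts over all libraries, against 185.5 for the others, and the 6 Igkv segments 207 against 221.

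The libraries held 44330101 to 58271208 gene counts each, and the immunoglobulin members took 0.0469 to 0.200% of them. Summed over 8 B cell markers fixed as a list, levels were 1731 to 2765 CPM in the B tumours (CPM are read counts set to a common library size, here scaled by trimmed mean of M values) and 24.5 to 134 CPM in the T tumours, and 8 of 8 were higher in B by edgeR (with 16% of all genes). The 8 T cell markers summed to 16.6 to 51.9 CPM in the B tumours and 1606 to 2700 CPM in the T tumours, so both tissue labels held. Zbtb17 stood at 49.4 and 59.1 CPM in B deltaPOZ, 66.1 and 48.0 CPM in B wt, 40.1 and 36.9 CPM in T deltaPOZ and 49.6 and 42.3 CPM in T wt; a count over the whole gene does not check a deletion inside it.

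In all 4 B tumours, of either genotype, nearly all heavy constant counts were those of Ighm, the IgM gene (Ighd, the IgD gene, is outside these counts). Ighm was at 1334 and 1034 CPM in B deltaPOZ 1 and 2, and at 1258 and 824 CPM in B wt 1 and 2. The groups overlapped, and the log2 difference of B deltaPOZ from B wt was 0.19 (SE 0.60, adjusted p = 0.930, edgeR quasi-likelihood test, Benjamini-Hochberg adjusted over the 16456 genes tested), against a median of -0.01 over all genes. Of the heavy constant counts Ighm held 98.4 and 99.9% in B deltaPOZ and 99.9 and 99.5% in B wt. In T tumours it held 70.5 and 65.7% (T deltaPOZ) and 78.3 and 89.8% (T wt), so the B and T libraries did not overlap. The mean was 99.4 ± 0.69% in B and 76.1 ± 10.5% in T (SD, n = 4 each; exact permutation test, two-sided, p = 0.0286, the smallest that 4 against 4 allows, and 0.0857 adjusted over 9 such tests).

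Levels of Ighm itself overlapped between the lineages. The T tumours held 946 and 335 CPM (T deltaPOZ) and 909 and 333 CPM (T wt), with a log2 difference of B from T of 0.82 (SE 0.43, edgeR adjusted p = 0.179). In a bulk sample, fewer cells of a type and less RNA per cell cannot be told apart. Per kilobase of exon, Ighm exceeded Igkc in every B tumour and in every T tumour, so this order does not set the B tumours apart. Ighm stood at 707 and 548 CPM per kb in B deltaPOZ, beside 183 and 117 for Igkc. In B wt Ighm stood at 667 and 437 CPM per kb, beside 169 and 36.7 for Igkc.

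The switched isotypes were scarce in the B tumours. The 4 gamma genes together, which encode the IgG constant regions, summed to 19.2 and 1.30 CPM in B deltaPOZ, 1.29 and 1.98 CPM in B wt, 290 and 149 CPM in T deltaPOZ and 244 and 29.3 CPM in T wt. B deltaPOZ 1 stood above the other B tumours, and every T tumour stood above every B tumour. Ighg2c, the IgG2c gene of this strain, was at 3.45 and 0.339 CPM in B deltaPOZ and 0.702 and 0.423 CPM in B wt, beside 137 and 79.3 CPM in T deltaPOZ and 106 and 15.7 CPM in T wt. Its log2 difference of B from T was -6.29 (SE 0.97, edgeR adjusted p = 0.00440), and that of Ighg2b was -5.17 (SE 1.03, edgeR adjusted p = 0.00996). Both stayed past the threshold whichever library was left out.

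Ighg3 was also lower in B (log2 difference -4.31, SE 0.97, edgeR adjusted p = 0.0154), but missed the threshold without B wt 1 (0.0623) or B wt 2 (0.0559). Igha, the IgA gene, stood at 2.26 and 0.0598 CPM in B deltaPOZ and 0.209 and 2.45 CPM in B wt, with 105 and 25.0 CPM in T deltaPOZ and 6.57 and 8.44 CPM in T wt. T deltaPOZ 1 was far above the others, and the edgeR adjusted p of 0.0305 (log2 difference of B from T -4.16) became 0.0928 without it, 0.0758 without B wt 1, 0.0638 without T wt 1 and 0.0673 without T wt 2. Ighg1 did not pass (-4.61, SE 1.65, edgeR adjusted p = 0.0686; -9.45 and 0.0350 without B deltaPOZ 1), and Ighe, the IgE gene, stayed at or below 0.520 CPM in every library. Between B deltaPOZ and B wt the gamma gene with the smallest p was Ighg2b, at 10.6 and 0.857 CPM in B deltaPOZ against 0.380 and 0.645 CPM in B wt (log2 difference 3.48, SE 1.40, edgeR adjusted p = 0.400); the groups did not overlap, and the difference was 0.80 without B deltaPOZ 1.

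**Figure D1:**
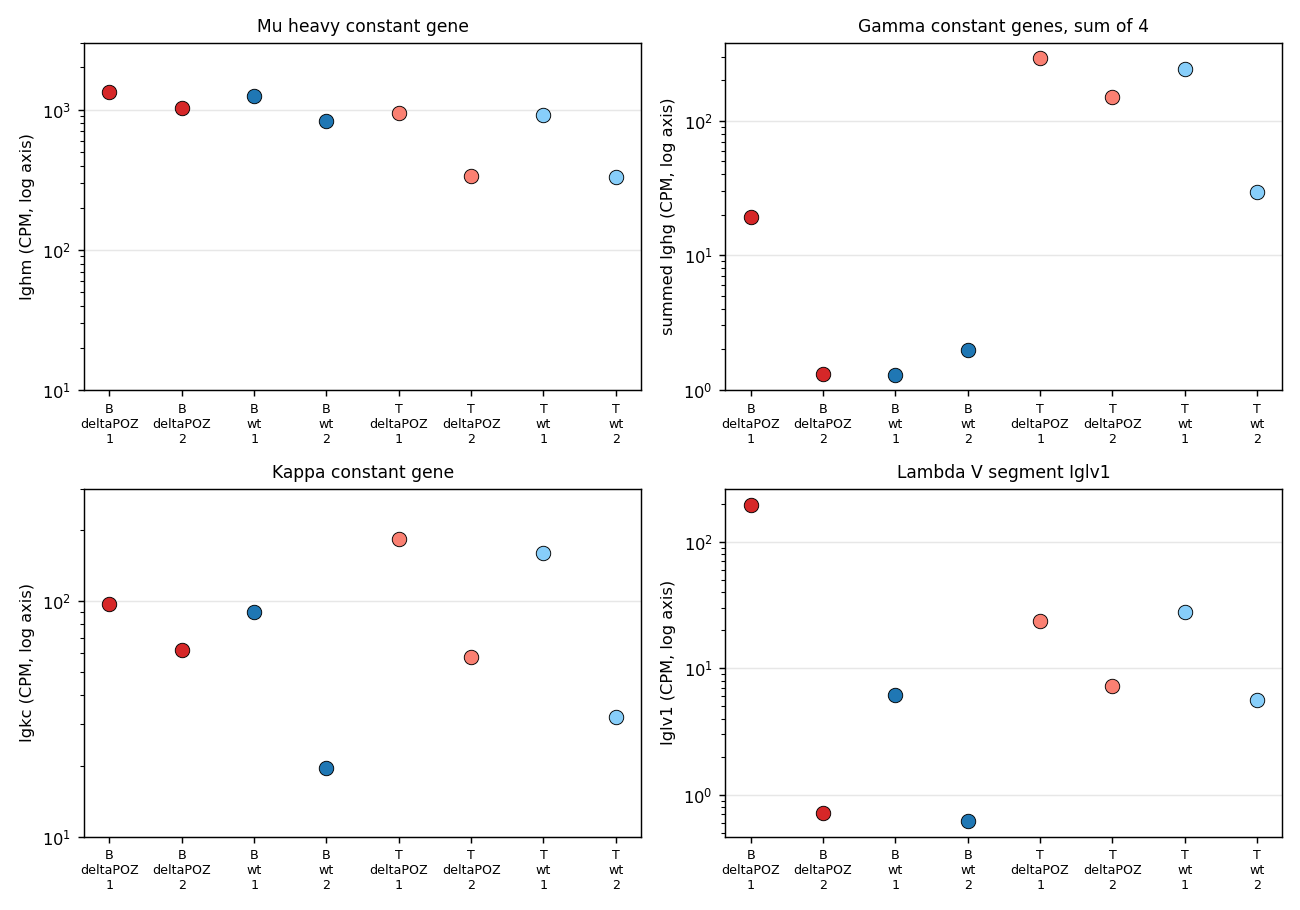
Levels in each library of Ighm, the summed 4 gamma genes, Igkc and Iglv1 (CPM, log axes), with 1 point per tumour and the 4 groups side by side. Ighm lay between 824 and 1334 CPM in all 4 B tumours, the gamma genes were 1.29 to 19.2 CPM in B and 29.3 to 290 CPM in T, and Iglv1 reached 196 CPM in B deltaPOZ 1 alone.

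Light chains were mostly kappa by their constant genes. Igkc stood at 97.6 and 62.1 CPM in B deltaPOZ and 89.7 and 19.5 CPM in B wt, with 184 and 58.1 CPM in T deltaPOZ and 161 and 32.1 CPM in T wt. The groups overlapped in both comparisons, with log2 differences of 0.55 for B deltaPOZ from B wt (SE 0.96, edgeR adjusted p = 0.858) and -0.71 for B from T (SE 0.68, edgeR adjusted p = 0.451). Iglc2 was at 3.12 and 1.87 CPM in B deltaPOZ and 1.20 and 0.867 CPM in B wt, below all T tumours at 24.4 and 8.50 CPM (T deltaPOZ) and 18.5 and 6.78 CPM (T wt). It fell by 3.16 on the log2 scale in B against T (SE 0.51, edgeR adjusted p = 0.00514) and stayed past the threshold whichever library was left out. Kappa made up 96.9 and 97.1% of light constant counts in B deltaPOZ, 98.7 and 95.8% in B wt, 88.3 and 87.2% in T deltaPOZ and 89.7 and 82.6% in T wt (exact permutation p of B against T = 0.0286, adjusted 0.0857). Iglc1, the partner of Iglv1, was not analysed here, so this share leaves out that lambda transcript.

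Heavy chain V usage differed among the 4 B tumours, and the deltaPOZ tumours held few heavy V counts. B deltaPOZ 1 and 2 had 799 and 71 Ighv counts (15.6 and 1.42 CPM), against 8971 and 3533 (170 and 78.6 CPM) in B wt 1 and 2. T deltaPOZ had 10063 and 3390, and T wt 8284 and 1985. B deltaPOZ 2 was the lowest of the 8. At least 1 count was found there for 25 of the 104 segments. It was found for 59 segments each in B deltaPOZ 1 and B wt 1, 89 in B wt 2 and 83 to 88 in the T tumours. These numbers depend on the Ighv counts a library holds, so 25 segments at 71 counts do not show a narrower usage.

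Set against Ighm, the low heavy V counts of the deltaPOZ tumours stood out from all other libraries. Per 100 Ighm counts there were 1.17 and 0.137 Ighv counts in B deltaPOZ 1 and 2, 13.5 and 9.53 in B wt, 19.5 and 16.8 in T deltaPOZ and 16.9 and 10.7 in T wt. The means were 0.652 ± 0.729 in B deltaPOZ and 11.5 ± 2.83 in B wt (SD, n = 2 each), a difference of -10.9 that ranged from -12.9 to -8.88 when 1 library was left out. This ratio was chosen after the data were seen. Because 2 against 2 cannot go below an exact permutation p of 0.333, no test was made. The ratio leaves out the Ighv segments not analysed here and reads with more than 1 alignment, and their part in it was not tested. The kappa locus gave 66.1 and 45.9 Igkv counts per 100 Igkc counts in B deltaPOZ, 79.8 and 58.0 in B wt, 89.6 and 92.1 in T deltaPOZ and 95.2 and 97.5 in T wt, with overlap between the B groups.

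**Figure D2:**
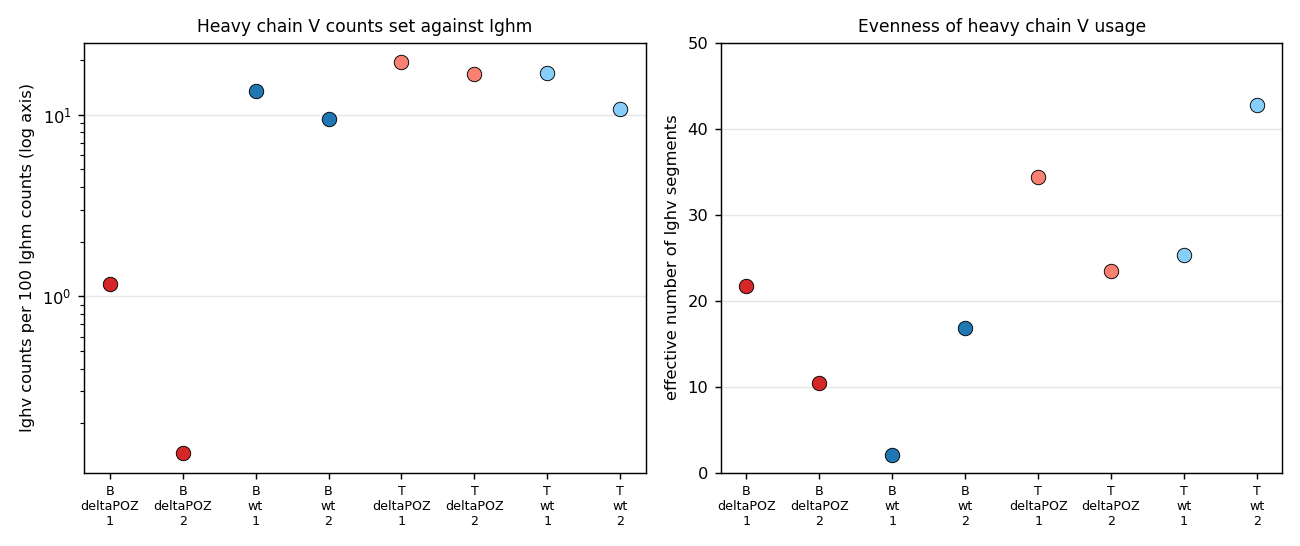
Left, Ighv counts per 100 Ighm counts in each tumour (log axis); right, the effective number of Ighv segments (linear axis from 0), with 1 point per tumour. B deltaPOZ lay at 1.17 and 0.137 on the left, where all other tumours lay between 9.53 and 19.5, and the B tumours reached 21.7 on the right, where the T tumours lay between 23.4 and 42.8.

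B deltaPOZ 1 had Ighv5-6 first, with 98 of 799 counts (12.3%, 95% Wilson interval 10.2 to 14.7%, counting error only, as for the other intervals of shares), followed by Ighv1-26 with 8.26% (6.55 to 10.4%). B deltaPOZ 2 had Ighv8-6 first, with 16 of 71 counts (22.5%, interval 14.4 to 33.5%), followed by Ighv1-54 with 12.7% (6.81 to 22.4%). These intervals overlap, so the order of its first segments is not resolved at 71 counts.

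B wt 1 was dominated by 2 segments. Ighv7-3 took 5543 of its 8971 Ighv counts, a share of 61.8% (interval 60.8 to 62.8%), and Ighv5-9-1 took 33.6% (32.6 to 34.6%). Ighv7-3 stood at 0.039 and 0.0797 CPM in B deltaPOZ, 105 and 0.489 CPM in B wt and 0.597 to 3.43 CPM in the T tumours. Ighv5-9-1 stood at 0.0780 and 0.140 CPM in B deltaPOZ, 57.2 and 0.400 CPM in B wt and 0.0994 to 1.13 CPM in the T tumours. For both segments B wt 1 was high, and the other B tumours did not exceed the T range. Neither passed between B deltaPOZ and B wt (log2 differences -9.75 with SE 2.68 and -8.02 with SE 2.46, edgeR adjusted p = 0.290 and 0.320), and without B wt 1 the differences were -2.99 and -1.86. In the same tumour 312 expressed genes of chromosome 12, where the heavy chain locus lies, stood 0.60 above the mean of the remaining B tumours in the median (log2 scale), where B deltaPOZ 1, B deltaPOZ 2 and B wt 2 stood at -0.26, -0.17 and -0.14; its part in the result was not tested.

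B wt 2 spread its heavy V counts over more segments than B wt 1. Ighv5-4 led with 457 of 3533 counts (12.9%, interval 11.9 to 14.1%), and Ighv5-6, the leader of B deltaPOZ 1, followed with 12.3% (11.2 to 13.4%). The top segment took 7.26 and 15.8% in T deltaPOZ and 14.4 and 4.99% in T wt, among them Ighv14-4 with 537 of 3390 counts in T deltaPOZ 2 and Ighv14-2 with 1191 of 8284 in T wt 1.

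**Figure D3:**
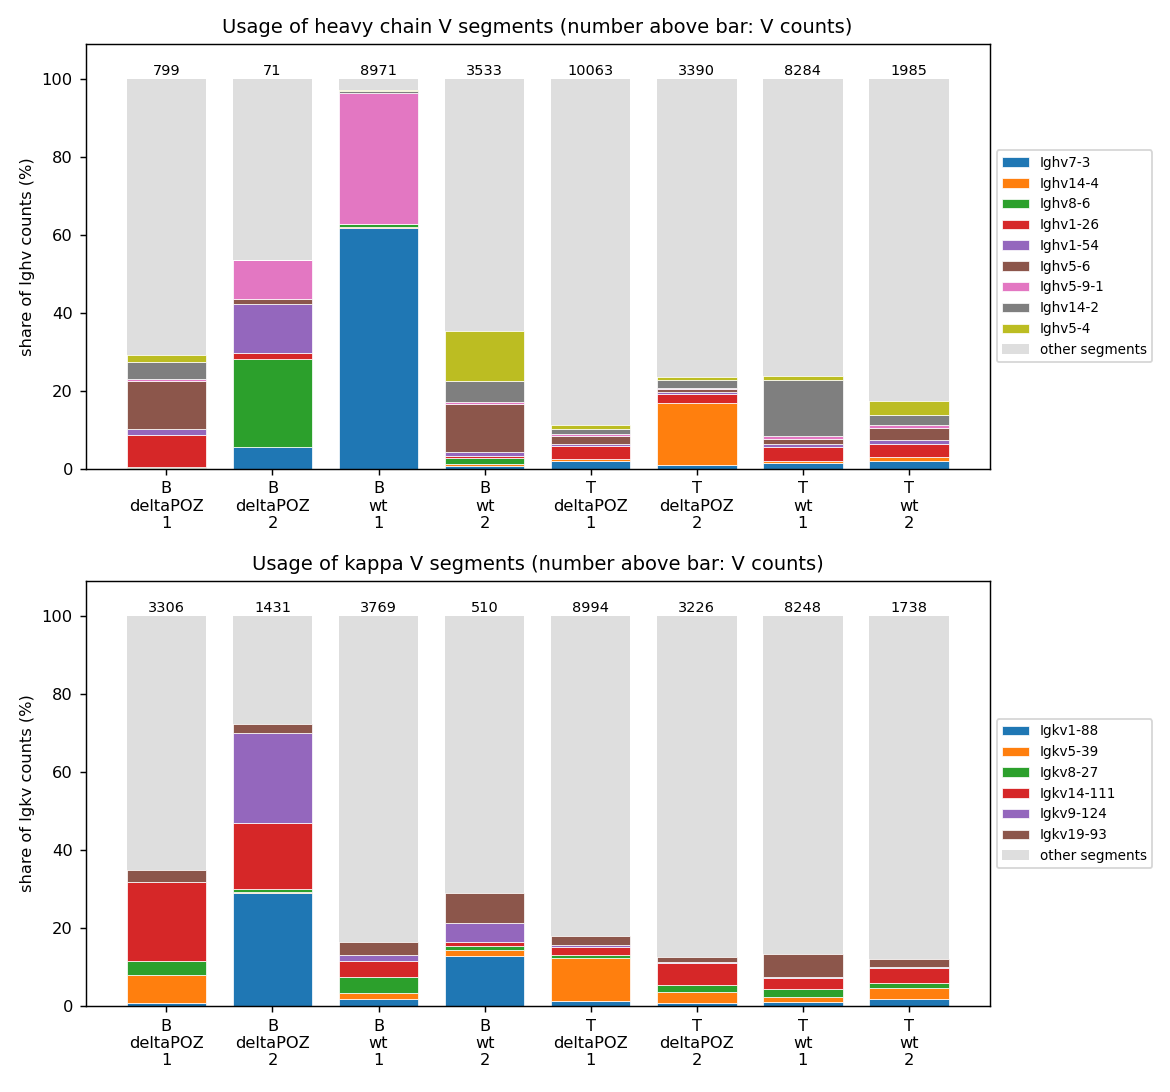
Share of the heavy chain (top) and kappa (bottom) V counts of each tumour taken by the segments named here, as stacked bars from 0 to 100%, with the number of V counts above each bar. Igkv1-88, Igkv9-124 and Igkv14-111 fill 28.9, 23.0 and 17.1% of the kappa bar of B deltaPOZ 2, and Ighv7-3 and Ighv5-9-1 fill 61.8 and 33.6% of the heavy chain bar of B wt 1.

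The evenness of usage was summed up by the effective number of segments, the inverse of the summed squared shares, which equals the number of segments when all are used alike. For Ighv it was 21.7 and 10.4 in B deltaPOZ, 2.02 and 16.8 in B wt, 34.4 and 23.4 in T deltaPOZ and 25.3 and 42.8 in T wt. The mean was 12.7 ± 8.50 in B and 31.5 ± 8.92 in T (SD, n = 4 each; exact permutation test, two-sided, p = 0.0286, adjusted 0.0857), without overlap between the lineages. The B genotypes overlapped, at 16.0 ± 7.93 in B deltaPOZ and 9.43 ± 10.5 in B wt (SD, n = 2 each). The share of the top Ighv segment averaged 27.4 ± 23.4% in B and 10.6 ± 5.30% in T (SD, n = 4 each; exact permutation p = 0.171, adjusted 0.36), with overlap.

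The B tumours were unlike one another in their heavy V usage, and the T tumours were alike. The overlap of 2 libraries, taken as the sum over segments of the smaller of their shares, was 3.89 to 47.2% for the 6 pairs of B tumours (median 16.6%). For the 6 pairs of T tumours it was 61.8 to 66.8% (median 64.1%), and for the 16 pairs of a B and a T tumour 4.83 to 53.8% (median 29.9%). B deltaPOZ 1 and B wt 2, of different genotypes, were the most alike of the B pairs, and B deltaPOZ 1 and B wt 1 the least. Both deltaPOZ tumours overlapped every T tumour more than any B tumour. For B deltaPOZ 1 the overlap was 53.8 and 48.8% with T deltaPOZ and 48.6 and 52.2% with T wt, against at most 47.2% with a B tumour. For B deltaPOZ 2 it was 23.7 to 26.2% with T tumours, against at most 21.7% with a B tumour. These overlaps describe the libraries, share libraries among pairs, and depend on the number of V counts.

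**Figure D4:**
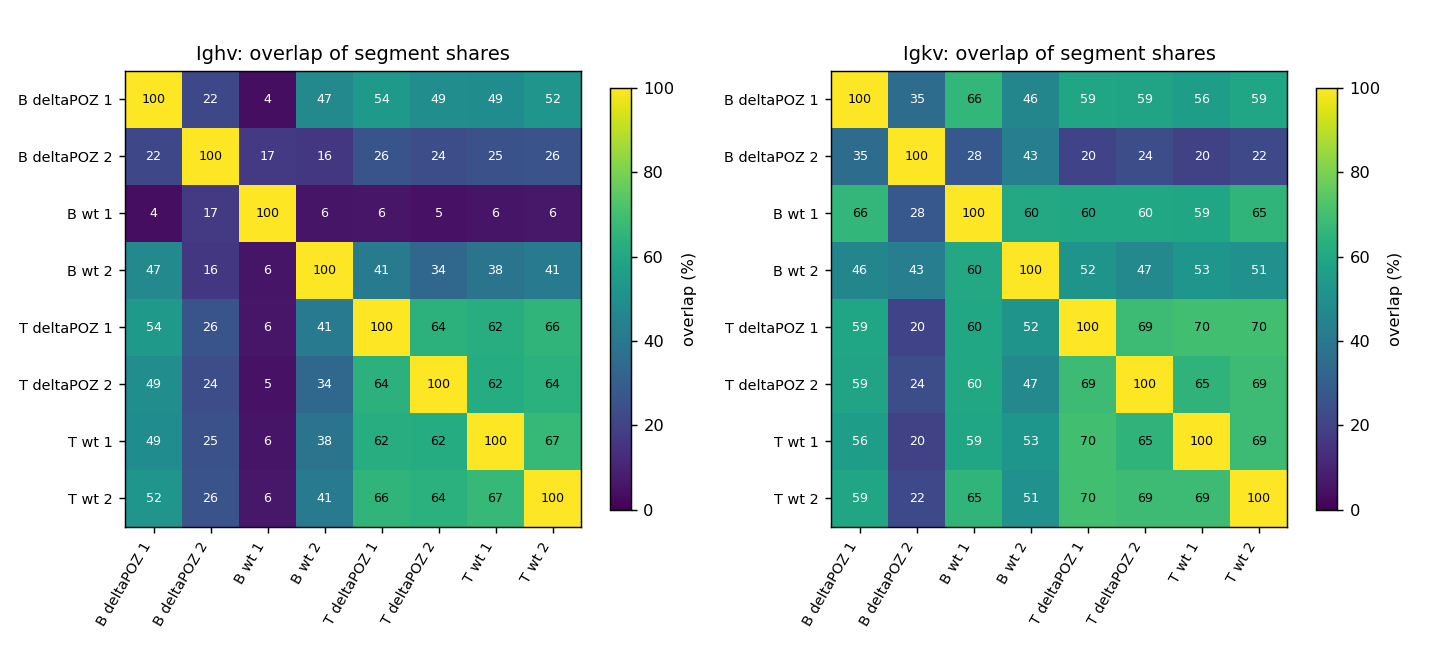
Overlap of V segment shares (%) between each pair of the 8 tumours, for Ighv (left) and Igkv (right), on a colour scale from 0 to 100% with the value in each square. The T tumours form a block at 61.8 to 66.8% for Ighv and 64.9 to 69.7% for Igkv, and B wt 1 shares at most 17.0% of its Ighv usage with any other tumour.

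Position in the locus differed along with the segments. The 35 Ighv segments nearest the J segments took 47.3 and 22.5% of heavy V counts in B deltaPOZ, 96.9 and 67.7% in B wt, 29.8 and 37.5% in T deltaPOZ and 36.5 and 35.2% in T wt. Both B wt tumours were above all others. Ighv5-4, Ighv5-6 and Ighv5-9-1 are the segments ranked 3, 5 and 11 from the J side, at 169, 197 and 307 kb, and Ighv7-3 is ranked 32 at 724 kb. Ighv8-6 and Ighv1-54, with 16 and 9 of the 71 Ighv counts of B deltaPOZ 2, lie far from the J segments at ranks 75 and 76, at 1737 and 1765 kb. Ighv5-9-1, near the J segments, held 7 counts (9.86%) in that tumour, so the order of these segments is not resolved. By family, the 49 Ighv1 segments, all at rank 48 or farther from the J side, took 32.5 and 45.1% in B deltaPOZ, 1.54 and 19.1% in B wt and 45.9 to 47.8% in the T tumours. The 9 Ighv5 segments took 21.4 and 12.7% in B deltaPOZ, 33.7 and 39.8% in B wt and 5.22 to 15.8% in T.

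**Figure D5:**
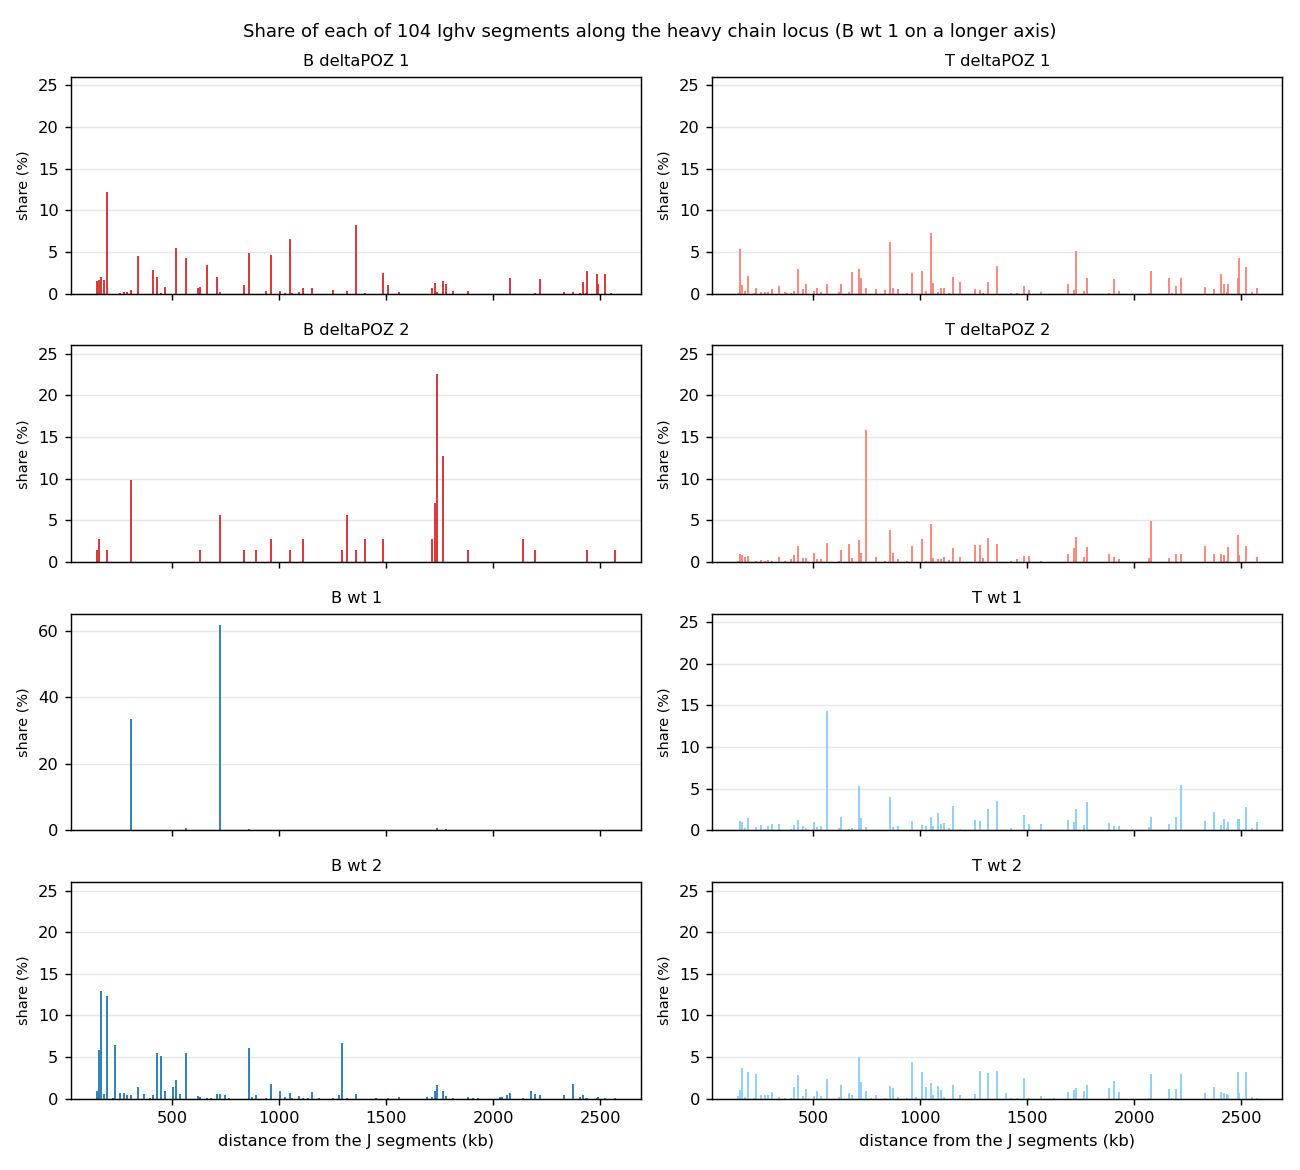
Share of each of the 104 Ighv segments (% of Ighv counts, linear axes from 0) against its distance from the J segments in kb, 1 panel per tumour, B tumours left and T tumours right, with a longer axis for B wt 1. Tall lines stand at 1737 kb in B deltaPOZ 2 and at 307 and 724 kb in B wt 1, and the T tumours show many low lines along the whole locus.

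No member passed between B deltaPOZ and B wt in the test across all genes. Of 213 members 166 had enough counts to be tested, 77 Ighv, 77 Igkv, 3 Iglv and 9 constant genes, and 0 passed by edgeR at an adjusted p of 0.05, where 0.00608% of all tested genes (1 gene) did. An unadjusted p under 0.05 was reached by 17 members (1 higher and 16 lower in B deltaPOZ, 10.2%) and by 12.1% of all genes (5.68% higher and 6.45% lower). At an adjusted p of 0.05 limma-voom called 0 members and 0.0365% of all genes, and DESeq2 called 9 members (1 higher and 8 lower, 5.42%) and 4.18% of all genes. Groups did not overlap for 6 members higher in B deltaPOZ and 24 lower, which are 3.61 and 14.5% beside 19.9 and 19.1% of all genes. Of the 77 tested Ighv segments 11 had a positive and 65 a negative log2 difference, with a median of -2.68 beside -0.01 over all genes, or -2.02 over the 66 that remain once segments at 0 in a group are set to a floor of 3 counts over it and those at or under it in both groups are left out. The Igkv median was -0.49 (25 positive and 52 negative), or -0.51 with that floor.

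The member with the smallest p between the B groups was Ighv14-4. It had 0 counts in both B deltaPOZ libraries and 0.304 and 0.378 CPM in B wt, so it was at least 11.4-fold lower in B deltaPOZ, taking 3 counts over the group as the floor (edgeR adjusted p = 0.268). In B wt 1 and 2 it held only 0.178 and 0.481% of Ighv counts, and B deltaPOZ 1 and 2 had 799 and 71 Ighv counts. Of the 77 tested Ighv segments, 11 had 0 counts in B deltaPOZ and more than 3 in B wt. Its drop is thus not set apart from that of all heavy V counts.

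Against the T tumours, most members that passed were lower in B. By edgeR 54 of 166 passed (32.5%, with 35.3% of all genes), 3 higher (1.81%, with 16% of all genes) and 51 lower (30.7%, with 19.3%). The count was 21 without B deltaPOZ 2 (11.7%, with 27.3% of all genes) and 24 without B wt 1 (14%, with 25.3%). It was 21 without T deltaPOZ 1 (11.9%, with 22.5%), 35 without T deltaPOZ 2 (19.6%, with 21.1%) and 19 without T wt 1 (10.7%, with 22.1%). Groups did not overlap for 38 members lower in B (22.9%, with 20.1% of all genes) and 3 higher (1.81%, with 17%). Lower members were 38 Ighv and 7 Igkv segments, Iglv2, Iglc2, Igha and 3 gamma genes. The median log2 difference was -3.64 for Ighv, -1.55 for Igkv and -0.05 for all genes. The filter for enough counts ran over all 4 groups. Segments such as Ighv1-22, with 3 and 4 counts in B deltaPOZ and 3 and 4 in B wt, were tested only through their T counts. The number of lower members and the Ighv median lean on such segments and describe the tested set only. Plasma cell markers went both ways in this comparison. Of 6, 1 was higher and 2 were lower in B by edgeR (with 16 and 19.3% of all genes). Their sums overlapped, at 132 to 247 CPM in B and 153 to 245 CPM in T. Among these 6, Jchain, which links IgM and IgA into polymers, stood at 21.6 and 0.917 CPM in B deltaPOZ and 3.72 and 3.27 CPM in B wt. In T deltaPOZ it stood at 138 and 34.6 CPM, and in T wt at 120 and 28.6 CPM. Jchain does not stand for the 6 markers, of which 1 was called higher in B. All 8 erythroid markers were lower in B by edgeR (with 19.3% of all genes), with sums of 4.74 to 219 CPM in B and 3591 to 18861 CPM in T. Their part in the result was not tested.

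Among the V segments called higher in B, Ighv8-6 stood out most clearly. It was named for its share in B deltaPOZ 2 and had enough counts to be tested only through B libraries. Its comparison with T thus describes values that helped to pick it and adds no separate support. B deltaPOZ 2 and both B wt tumours lay well above every T tumour. The 2 counts of B deltaPOZ 1 are under the floor of 3 counts and not resolved from the 1 count of T deltaPOZ 2 or T wt 1. Ighv8-6 had 2 and 16 counts in B deltaPOZ, 76 and 58 in B wt, 0 and 1 in T deltaPOZ and 1 and 0 in T wt. Over the lineages that is 152 against 2 counts, a ratio of 85.6 (95% exact interval 23.3 to 713, counting error only), and edgeR gave an adjusted p of 0.00845, below 0.05 whichever library was left out. The other segments that were higher in B, Igkv10-95 (log2 difference 2.81, edgeR adjusted p = 0.0276) and Igkv12-89 (2.45, 0.0345), lost the call in most fits that left out 1 library: Igkv10-95 kept the call only without B wt 2 or T wt 1 (0.0556 to 0.0954 without another), and Igkv12-89 only without B deltaPOZ 1 or B wt 2 (0.0535 to 0.111 without another). The smallest adjusted p of a member belonged to Ighv1-22, at 0.0585 and 0.0797 CPM in B deltaPOZ, 0.0569 and 0.0890 CPM in B wt, 2.55 and 1.64 CPM in T deltaPOZ and 3.96 and 1.10 CPM in T wt (log2 difference -4.98, SE 0.61, edgeR adjusted p = 0.00204). Ighv1-22, Igkv10-95 and Igkv12-89 were named after their values were seen.

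Among kappa segments, B deltaPOZ 2 had the narrowest usage. Igkv1-88 took 413 of its 1431 Igkv counts (28.9%, interval 26.6 to 31.3%), Igkv9-124 took 23.0% (20.9 to 25.2%) and Igkv14-111 took 17.1%. B deltaPOZ 1 had Igkv14-111 first with 668 of 3306 counts (20.2%, interval 18.9 to 21.6%), ahead of Igkv5-39 with 7.29%. B wt 1 was even, with Igkv14-111 at 4.11% of 3769 counts and Igkv8-27 at 4.09%, and B wt 2 had Igkv1-88 first with 65 of 510 counts (12.7%, interval 10.1 to 15.9%), ahead of Igkv19-93 with 7.84%. Igkv1-88 thus headed 1 deltaPOZ and 1 wt tumour, while in B wt 1 the order of Igkv14-111 (155 counts) and Igkv8-27 (154) is not resolved.

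Igkv14-111 stood at 13.0 and 4.88 CPM in B deltaPOZ, 2.94 and 0.0890 CPM in B wt and 1.24 to 4.23 CPM in the T tumours, and the B groups did not overlap (log2 difference 2.56, SE 1.36, edgeR adjusted p = 0.492). Igkv1-88 stood at 0.410 and 8.23 CPM in B deltaPOZ and 1.25 and 1.45 CPM in B wt, with 0.464 to 2.18 CPM in T (log2 difference of B deltaPOZ from B wt 1.68, SE 1.32, edgeR adjusted p = 0.638), and B deltaPOZ 2 was the high one. The effective number of Igkv segments was 16.7 and 5.80 in B deltaPOZ, 53.7 and 24.9 in B wt, 28.3 and 31.3 in T deltaPOZ and 35.8 and 37.9 in T wt. Both deltaPOZ tumours were below all others, at 11.3 ± 7.73 against 39.3 ± 20.3 in B wt (SD, n = 2 each), and the lineages overlapped (exact permutation test of 4 against 4, two-sided, p = 0.457, adjusted 0.514). The top Igkv segment took 24.5 ± 6.12% in B deltaPOZ and 8.43 ± 6.10% in B wt (SD, n = 2 each), and over 4 B and 4 T tumours it gave an exact permutation p of 0.2 (adjusted 0.36). The overlap of Igkv shares was 27.5 to 66.2% between B tumours (median 44.5%) and 64.9 to 69.7% between T tumours (median 68.7%).

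Lambda was the larger light chain V class in 1 tumour. Iglv1 stood at 196 CPM in B deltaPOZ 1 and 0.718 CPM in B deltaPOZ 2, against 6.21 and 0.623 CPM in B wt, with 23.7 and 7.21 CPM in T deltaPOZ and 27.9 and 5.62 CPM in T wt. B deltaPOZ 1 was thus above the T tumours as well, B wt 1 lay within the T range, and B deltaPOZ 2 and B wt 2 lay below it. Iglv1 made 10067 of the 10192 Iglv counts in B deltaPOZ 1 (98.8%, interval 98.5 to 99.0%), and Iglv segments were 75.5% of all its light chain V counts, beside 4.41% in B deltaPOZ 2, 10.5 and 7.94% in B wt, 17.0 and 14.8% in T deltaPOZ and 18.5 and 20.8% in T wt. The log2 difference of Iglv1 between B deltaPOZ and B wt was 4.84 (SE 2.26, edgeR adjusted p = 0.447), and -2.19 without B deltaPOZ 1. In that tumour Iglc2 was at 3.12 CPM and Igkc at 97.6 CPM.

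Iglv2 was at 0.722 and 0 CPM in B deltaPOZ and 0.133 and 0 CPM in B wt, below 7.82 and 1.49 CPM in T deltaPOZ and 3.23 and 1.50 CPM in T wt (log2 difference of B from T -4.37, edgeR adjusted p = 0.0481), and the adjusted p was 0.0575 to 0.130 when any library other than B deltaPOZ 1 was left out. Iglv3 took 0.863% of 10192 Iglv counts in B deltaPOZ 1, 45.5% of 66 in B deltaPOZ 2, 24.3% of 441 in B wt 1 and 36.4% of 44 in B wt 2. In the T tumours its share was 6.42 to 13.4%. The share of the top Iglv segment overlapped between the lineages (72.8 ± 19.1% in B and 74.1 ± 5.62% in T, SD, n = 4 each; exact permutation p = 0.914).

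The J segments, which join to V in both chain types, gave almost no counts: over 9 J genes there were 1 and 0 in B deltaPOZ, 3 and 0 in B wt, 10 and 1 in T deltaPOZ and 5 and 2 in T wt, and the 18 D genes had 0. Usage of J could therefore not be read. Summed over all members, constant genes were at 1456 and 1099 CPM in B deltaPOZ, 1350 and 849 CPM in B wt, 1551 and 576 CPM in T deltaPOZ and 1340 and 410 CPM in T wt. Summed V segments were at 279 and 31.3 CPM in B deltaPOZ, 250 and 90.9 CPM in B wt, 383 and 119 CPM in T deltaPOZ and 342 and 75.3 CPM in T wt. Neither sum passed between lineages on the log2(CPM + 1) scale (exact permutation p = 0.371 and 0.429, adjusted 0.514 for both).

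Genes that assemble, escort or alter the antigen receptor were followed as lists, and 0 passed between B deltaPOZ and B wt by edgeR in any of them (0.00608% of all genes passed). All 4 surrogate light chain genes had negative differences, with a median of -4.91, and 3 had an unadjusted p under 0.05 (with 6.45% of all genes lower at that threshold). Igll1, the lambda5 part of the surrogate light chain, was at 0.039 and 3.35 CPM in B deltaPOZ and 42.3 and 32.0 CPM in B wt (log2 difference -4.45, SE 1.62, edgeR adjusted p = 0.371). Vpreb1, with the smallest p of the 4, was at 0.0585 and 0.937 CPM in B deltaPOZ and 19.3 and 21.9 CPM in B wt (-5.37, SE 1.15, edgeR adjusted p = 0.224). Vpreb3, which is expressed in precursor B cells, was at 34.7 and 152 CPM in B deltaPOZ and 344 and 226 CPM in B wt (-1.61, SE 0.77, edgeR adjusted p = 0.453). Both deltaPOZ tumours were below both wt tumours for these genes, and Vpreb2 had 0 counts in B deltaPOZ and 0.247 and 1.73 CPM in B wt.

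Of 12 V(D)J recombination genes 4 had positive and 8 negative differences (median -0.42), and 1 higher and 2 lower had an unadjusted p under 0.05 (with 5.68 and 6.45% of all genes). Hmgb2, a DNA-bending protein that helps the RAG recombinase, was at 254 and 237 CPM in B deltaPOZ and 387 and 344 CPM in B wt (log2 difference -0.58, SE 0.15, edgeR adjusted p = 0.278), and Xrcc5, the Ku80 end-joining protein, at 163 and 145 CPM in B deltaPOZ and 106 and 108 CPM in B wt (0.53, SE 0.18, edgeR adjusted p = 0.349). Of 12 antigen receptor partners 1 was positive and 11 negative (median -0.57), with 2 of the negative ones at an unadjusted p under 0.05 (with 6.45% of all genes lower at that threshold). Cd79a, which carries the signal of membrane immunoglobulin, was at 40.7 and 56.0 CPM in B deltaPOZ and 155 and 145 CPM in B wt, without overlap (-1.63, SE 0.61, edgeR adjusted p = 0.382). Pik3ap1, an adaptor that links the receptor to PI3K, was at 29.0 and 25.7 CPM in B deltaPOZ and 110 and 54.5 CPM in B wt (-1.59, SE 0.42, edgeR adjusted p = 0.277).

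Of 14 class switch and hypermutation genes 9 were positive and 5 negative (median 0.20), and 1, Xrcc5 again, had an unadjusted p under 0.05 (with 5.68% of all genes higher at that threshold). Of 12 secretion and plasma cell genes 4 were positive and 8 negative (median -0.32), with 1 in each direction at an unadjusted p under 0.05 (with 5.68% of all genes higher and 6.45% lower). Fkbp11, a chaperone of the secretory pathway, was at 35.7 and 10.5 CPM in B deltaPOZ and 4.97 and 5.69 CPM in B wt (log2 difference 2.11, SE 0.66, edgeR adjusted p = 0.323), while Xbp1, which drives the secretory programme of plasma cells, was at 39.5 and 29.5 CPM in B deltaPOZ and 46.2 and 60.3 CPM in B wt (-0.63, SE 0.24, edgeR adjusted p = 0.386). Among 8 myeloid markers 0 were positive (median -2.24) and 0 had an unadjusted p under 0.05, with sums of 217 and 94.3 CPM in B deltaPOZ and 170 and 1247 CPM in B wt, and all 8 erythroid markers were positive, 6 of them at an unadjusted p under 0.05 (with 5.68% of all genes higher at that threshold), with sums of 12.5 and 219 CPM in B deltaPOZ and 5.03 and 4.74 CPM in B wt. Their part in the differences between the B groups was not tested.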

How the data were processed

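Poly(A) RNA libraries were made with the TruSeq Stranded mRNA kit, per the labels' protocols. The values used are whole-number counts of reads per gene that the authors deposited, 1 table per tumour. TopHat2 2.0.10, SAMtools, HTSeq and DESeq with the mm10/GRCm38 build are named in the submitters' processing notes; the annotation release and strand setting were each not given in the sources used here. No-feature counts (30.4 to 39.3% of gene, no-feature and ambiguous counts) and ambiguous counts (0.471 to 0.554%) were left out. Symbols and positions came from GENCODE M21, which held 97.7% of the identifiers.

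Library sizes were scaled by trimmed mean of M values, and genes were filtered with filterByExpr (16456 of 27639 genes with a count) and fitted in edgeR 4.0.16 (glmQLFit, glmQLFTest) with 1 mean per group, a biological coefficient of variation of 0.45 and 4 residual degrees of freedom. Benjamini-Hochberg adjustment ran over every gene tested, with a threshold of 0.05. Contrasts were B deltaPOZ minus B wt, and B minus T over both genotypes. The SE of a log2 difference was its size over the root of F. A segment's share is its counts over the V counts of its locus in the library. Shares, effective numbers and summed levels were compared between 4 B and 4 T tumours by two-sided exact permutation tests, adjusted over 9. Alternatives used DESeq2 1.42.0, limma 3.58.1 and the settings named below, and the code was tested on simulated data. The software was R 4.3.3 and Python 3.11.15, with SciPy 1.17.1, pandas 2.3.3, matplotlib 3.10.9 and NumPy 2.4.6.

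Named V segments are those that were first or next by share in a B library or held 10% of a locus in any library; named constant genes held at least 1% of their class in a library; of each list, up to 4 members with the smallest p between the B groups were eligible. The members and lists were chosen with earlier results of these data known. Replicate numbers only name the tumours and do not pair them.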

Additional observations from a re-analysis of the deposited data

Results flagged for a closer look

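Ighv14-4 levels did not overlap between the genotypes in either lineage, with opposite directions in the 2 lineages. It was the 1 item flagged in a screen of the usage measures, 18 named V segments and the named constant genes for this pattern. With 2 tumours a group, such a pattern also arises by chance when many items are screened. It had 0 counts in both B deltaPOZ libraries, against 0.304 and 0.378 CPM in B wt, a log2 difference of -3.51 or beyond when 3 counts over the group are taken as the floor. T deltaPOZ tumours held 1.37 and 8.90 CPM, against 0.724 and 0.324 CPM in T wt. In B wt 1 and 2 it held only 0.178 and 0.481% of Ighv counts. Its absence among the 799 and 71 Ighv counts of B deltaPOZ 1 and 2 is not set apart from their low heavy V counts. The difference between the lineages was not tested.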

How the results depend on the processing

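Between B deltaPOZ and B wt, 0 members passed by edgeR, and 0 passed in each fit that left out 1 library, with limma-voom, with other scaling, with a filter of 10 counts in total, with the B libraries alone or at a threshold of 0.1; DESeq2 called 9 (5.42%, with 4.18% of all genes), and without a filter 30 were called (14.6%, with 4.79%). Between B and T, 54 members passed (32.5%, with 35.3% of all genes), 116 without a filter (56.3%, with 25.1%) and 19 to 42 when 1 library was left out (10.7 to 23.6%, with 21.1 to 28% of all genes); the cause of these changes was not tested. The difference in the share of the top Ighv segment between B deltaPOZ and B wt was -20.0 percentage points and became 19.0 when only segments with at least 10 counts entered, since Ighv8-6 is then the 1 segment that B deltaPOZ 2 keeps. Ighv counts per 100 Ighm counts differed by -10.9, and by -54.6 when both were taken per kilobase, which rescales all libraries alike. Leaving out 1 library turned the direction of these values. The top Iglv share of B minus T ranged from -9.96 to 4.79 percentage points. For B deltaPOZ minus B wt the top Ighv share ranged from -44.4 to 4.47, the top Iglv share from -14.3 to 29.9, the Ighm share from -1.26 to 0.198 and the kappa share from -1.70 to 1.23 percentage points, the effective number of Ighv segments from -0.80 to 14.0, and the summed level of V genes from -2.24 to 0.88 and of C genes from -0.093 to 0.57 (log2). Further, log2 differences of B deltaPOZ from B wt from -0.026 to 0.52 for Ighm, -0.11 to 2.03 for Igkc, -2.19 to 7.30 for Iglv1 and -1.71 to 2.66 for Igkv1-88, and of B from T from -1.45 to 0.082 for Igkc. Over all values other than log2 differences of named genes, 63 under another setting and 120 without 1 library kept their call or moved by less than the spread between replicates. Values that turned direction within that spread are among them. With 2 tumours a group, leaving out 1 cannot move a difference between the B groups past it. Another 5 under another setting and 5 without 1 library changed more, and 3 without 1 library reversed. Among the log2 differences of named genes, 15 gained a call under another setting and 5 turned direction without 1 library, and others lost or gained their call. No paired analysis was possible because the labels give no replicate numbers. With 2 tumours a group, and 71 Ighv counts in B deltaPOZ 2, only large differences are within reach. The samples are single tumours of separate mice, so clonal usage and a genotype cannot be told apart here.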
